A study of Mus musculus with 8 samples.

Results

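The genes described here encode SR proteins, SR-related proteins and heterogeneous nuclear ribonucleoproteins (hnRNPs), and were taken from the array annotation by name: every non-control spot whose gene name began with Sfrs or Srsf and a number, or with Hnrnp or Hnrp. The names gave 89 probes of 39 genes, of the 41174 probes on the array, and current symbols are used here. They comprised 8 classical SR proteins (17 probes), 11 SR-related proteins (27 probes) and 20 hnRNP proteins (45 probes). RNA came from the pSHF, or posterior second heart field, a mesenchyme that adds the atrial septum to the forming heart, microdissected from mouse embryos at E9.5. There were 4 samples labelled Tbx5-/+ (heterozygous for a mutant Tbx5 allele, Tbx5+/- below) and 4 labelled wild-type, each a pool of RNA on 1 single-colour Agilent array, and both groups carry the numbers 1, 5, 6 and 7. The strain background was mixed, all embryos came from superovulated females, and neither the number of embryos in a pool nor their being separate litters is given in the sources used here, so p-values measure the spread between these pools. Numbers 1 and 5 lay on slide 1 and numbers 6 and 7 on slide 2. In a bulk sample fewer cells of a type and less RNA per cell cannot be told apart.

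SR proteins carry RNA recognition motifs and a tail rich in arginine and serine dipeptides, bind exonic enhancers and help the spliceosome to define exons. The hnRNP proteins coat nascent transcripts, and several of them, such as Hnrnpa1, oppose SR proteins at exons and splice sites. Both families act by relative amount, are made in nearly all cells, and keep their own levels in check by splicing their transcripts into forms that are degraded. Each probe is a 60-base stretch of 1 transcript, so probes of a gene can report different transcript forms or different ends of the same transcript.

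The probes on which the results below turn are shown by 30 of their 60 bases, 5′ to 3′, as the array file prints them, with the coordinates of the whole probe on mm9. Bases 16 to 45 are given for the first 9, with runs of 3 or more G or C in capitals. Both probes of Hnrnpa0, which differed most between the groups, are rich in G and C, at 60% and 75%. Those of Hnrnpa3, Srek1ip1 and Hnrnpll are shown since probes of the same gene differed in opposite directions, and that of Hnrnpk for its high level.
Hnrnpa0 A_52_P625431 (chr13:58229242-58229301, minus strand): ttGCCGacaagcagtCGGGCaagaaGCGCG
Hnrnpa0 A_51_P517423 (chr13:58228706-58228765, minus strand): ggttCCGGatGCCGGCGGCGGGCGCGGCCa
Hnrnpa3 A_51_P443482 (chr2:75500015-75500074, plus strand): taacctgagagactactttgaaaagtatgg
Hnrnpa3 A_51_P272617 (chr2:75503607-75503666, plus strand): ttcaggactgtcataGCCacagtttgcaaa
Hnrnpa3 A_51_P222088 (chr2:75507144-75507203, plus strand): ggacacatggtaagaaaaagtccatctagt
Srek1ip1 A_52_P203981 (chr13:105607403-105617150, plus strand, across an exon junction): ccactcaccttgcatcatGGCagtCCCagg
Srek1ip1 A_51_P300297 (chr13:105628341-105628400, plus strand): catattGGCatgtcttaggtgatacctcaa
Hnrnpll A_52_P103377 (chr17:80431468-80431527, minus strand): atatctaatatgtgatggaattatctcttg
Hnrnpk A_51_P376358 (chr13:58493364-58493423, minus strand): tccacatgtCCCtGGCatttgttcagagca
The next 2 probes, of Srsf7, overlap, and capitals mark the 20 bases that both hold; bases 31 to 60 of the first and 1 to 30 of the second are given. They are a check of how closely neighbouring probes of 1 transcript follow each other.
Srsf7 A_52_P649685 (chr17:80600700-80600759, minus strand): ttgttgaatgTATTAACATCTTATGGTCTG
Srsf7 A_52_P649683 (chr17:80600660-80600719, minus strand): TATTAACATCTTATGGTCTGaaaatgtggg

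One library stood apart. Tbx5+/- 1 lay with the wild-type arrays on the first principal component, at 37.18 against 10.04 to 52.39 for wild-type and -112.1 to -26.08 for the other Tbx5+/- arrays, so results are also given without it. That choice came from the same values that were then tested, so leaving it out favours wider separation of the groups. At an adjusted p under 0.05, 12.1% of all probes were lower and 7.03% higher without it, and 0 without Tbx5+/- 5, 6 or 7. The p-values without Tbx5+/- 1 are therefore descriptive. The Tbx5 probe itself read 9.01, 9.73, 9.16 and 8.62 (log2) in Tbx5+/- 1, 5, 6 and 7 and 11.47, 11.56, 10.42 and 11.54 in wild-type, which follows the labels; whether it lies in the altered part of the allele is not known here. Spots well above background made up 45.01% to 52.78% of a Tbx5+/- array and 50.88% to 63.64% of a wild-type array. Over 7 marker lists, the mean log2 level of 6 endothelial genes was 10.02 to 10.66 in Tbx5+/- and 10.78 to 10.99 in wild-type (exact permutation test, two-sided p = 0.0286, 0.2 after adjustment over the 7 lists), and that of 10 pSHF genes 9.67 to 10.65 and 10.61 to 11.29 (exact p = 0.0571). The pSHF list holds Tbx5 itself, whose allele defines the groups, and Foxf1a, which the study reports as reduced in Tbx5+/- embryos. Its mean is thus partly set by genotype. Of the 10 pSHF genes 6 lay lower and 4 higher, and of the 6 endothelial genes 4 and 2. Cardiomyocyte genes (9) and primitive erythrocyte genes (6) were detected in both groups with exact p of 0.771 and 0.914, and foregut, liver and neural lists had exact p of 0.0857, 0.4 and 0.857. Apoa1 and Ttr of the liver list and Sox1 and Olig2 of the neural list were not well above background in either group.

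**Figure D1:**
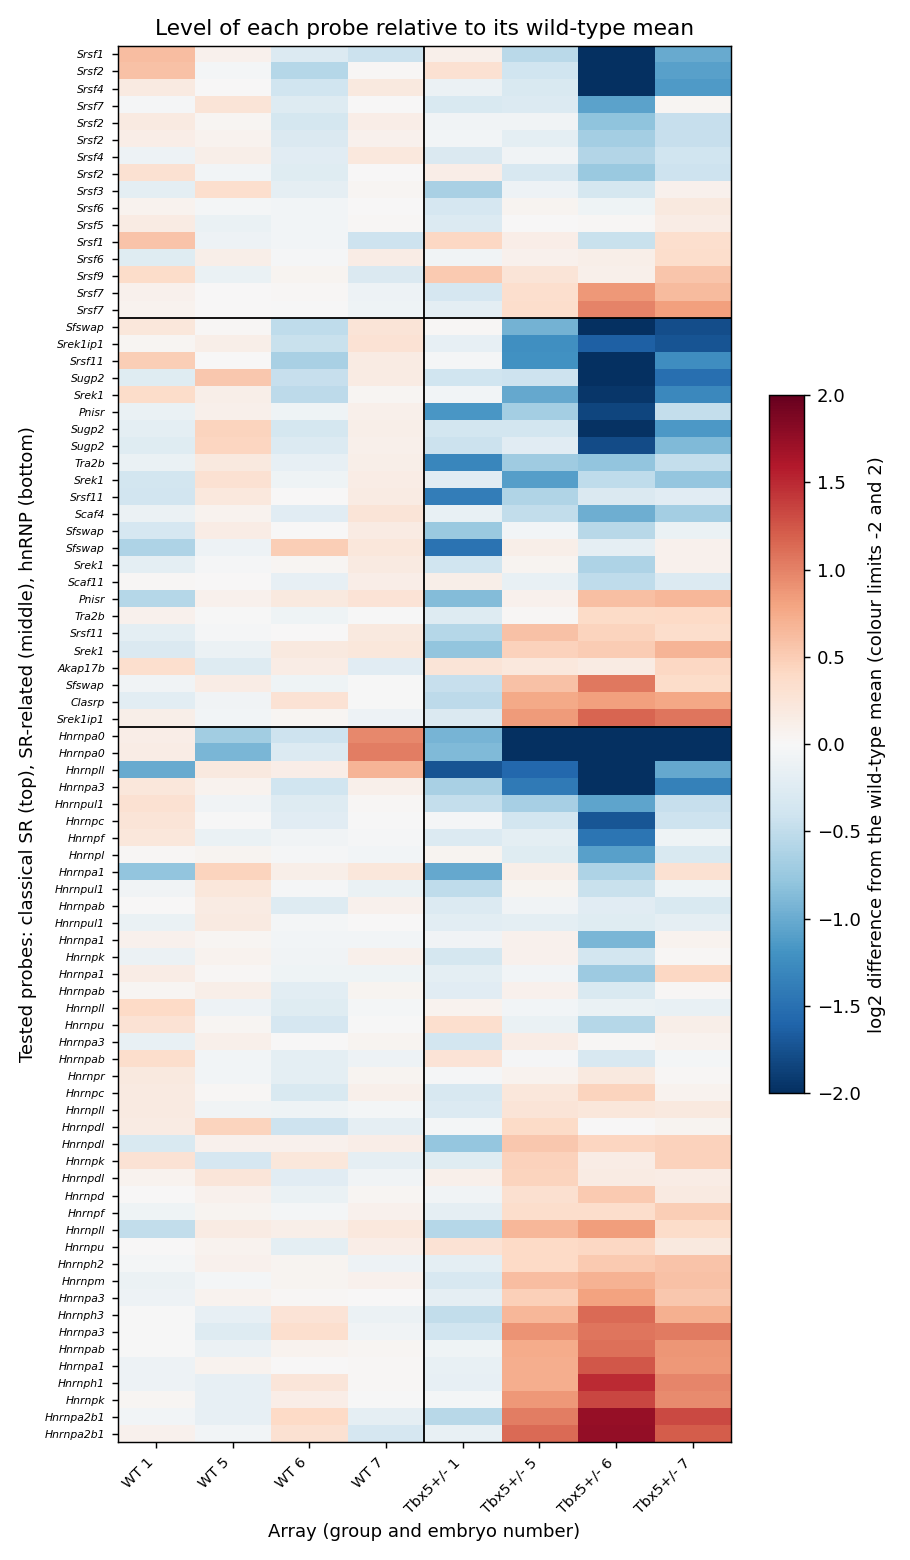
Level of each of the 82 tested SR and hnRNP probes (rows, by family and then by difference) on each of the 8 arrays (columns), as the log2 difference from that probe's wild-type mean, with colours limited to -2 and 2. Tbx5+/- 1 is paler than Tbx5+/- 5, 6 and 7 in most rows, and Tbx5+/- 6 is the most strongly coloured.

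Of the 89 probes, 82 (38 genes) stood well above background in either group (on all 4 of its arrays) and were tested, with p adjusted over 20031 probes. Hnrnpul2 had no tested probe. A group was compared with the other by limma, and a difference is the Tbx5+/- mean less the wild-type mean on the log2 scale. None of the 82 probes passed an adjusted p of 0.05, nor did any of the 20031 (0.0%), and the smallest adjusted p among the members was 0.0959. At an unadjusted p under 0.05, 16 of the 82 member probes were lower and 6 higher in Tbx5+/-, beside 18.5% and 3.38% of all probes. The direction of these calls moved with the scaling, for all probes as for the members. With 75th percentile scaling 11 members were lower and 26 higher, beside 8.61% and 15.6% of all probes, and with arrays centred on their median 7 and 22, beside 6.64% and 16.2%. With quantile normalization they were 10 and 5, beside 9.5% and 9.42%. Because 10 of the 82 entered the test through the wild-type arrays alone, and none through the Tbx5+/- arrays alone, the counts were also taken over the 72 above background on all 8 arrays: 8 were lower and 6 higher, beside 15.9% and 3.88% of all such probes. The groups did not overlap at 8 lower probes and 1 higher probe, beside 8.98% and 0.744% of all probes; over the probes above background on all arrays these were 4 and 1, beside 8.06% and 0.776%. The 6 higher at an unadjusted p under 0.05 became 21 without Tbx5+/- 1, beside 14.6% of all probes. They became 1 without Tbx5+/- 5, 6 or 7 or wild-type 7 (1.61%, 1.07%, 1.46% and 0.859% of all probes), 2 without wild-type 5 (1.08%) and 3 without wild-type 1 (3.71%). Leaving out an array can only keep or raise the number without overlap: it was highest without Tbx5+/- 1, at 19 lower (21.9% of all probes) and 24 higher (3195 of 20021 probes in all). Without wild-type 6 it was 19 lower (19.7% of all probes), and the 1 higher became 3 without wild-type 1 (3.96%) and 2 without wild-type 5 (1.01%).

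The median difference over the 82 probes was -0.08, which was 0.11 above the median of all probes tested (-0.19). Relative to all probes it turned to -0.15 when only probes passing the filter of the study's methods were taken, to -0.10 without a filter and to -0.028 with quantile normalization. By family, the median was -0.29 over 16 classical SR probes, -0.47 over 24 SR-related probes and 0.08 over 42 hnRNP probes. Over the probes above background on all 8 arrays these were -0.25, -0.21 and 0.10, beside -0.15 for all such probes. With the study's filter they were -0.96, -0.74 and 0.36, beside -0.42 for all probes passing it. The SR-related median was -0.15 both with 75th percentile scaling and with centring. The classical SR median turned to 0.061 with 75th percentile scaling and 0.028 with centring, where that of the hnRNP probes was 0.45 and 0.41; without wild-type 6 the hnRNP median was -0.013. With values scaled to the 75th percentile or centred on each array's median, the median over all members turned to 0.29 and 0.24, and the median of all probes turned too, to 0.10 and 0.13. With 1 probe per gene, the brightest, it was 0.21. With the embryo number as a block, 13 member probes passed lower and 0 higher, beside 10.7% and 0.379% of all probes. Of these 13, 6 were above background on all arrays, beside 8.72% of all such probes, and the rest entered the test through the wild-type arrays alone. Without Tbx5+/- 1, 13 passed lower and 16 higher, beside 12.1% and 7.03% of all probes; 6 of the lower and all 16 higher were above background on all 8 arrays.

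**Figure D2:**
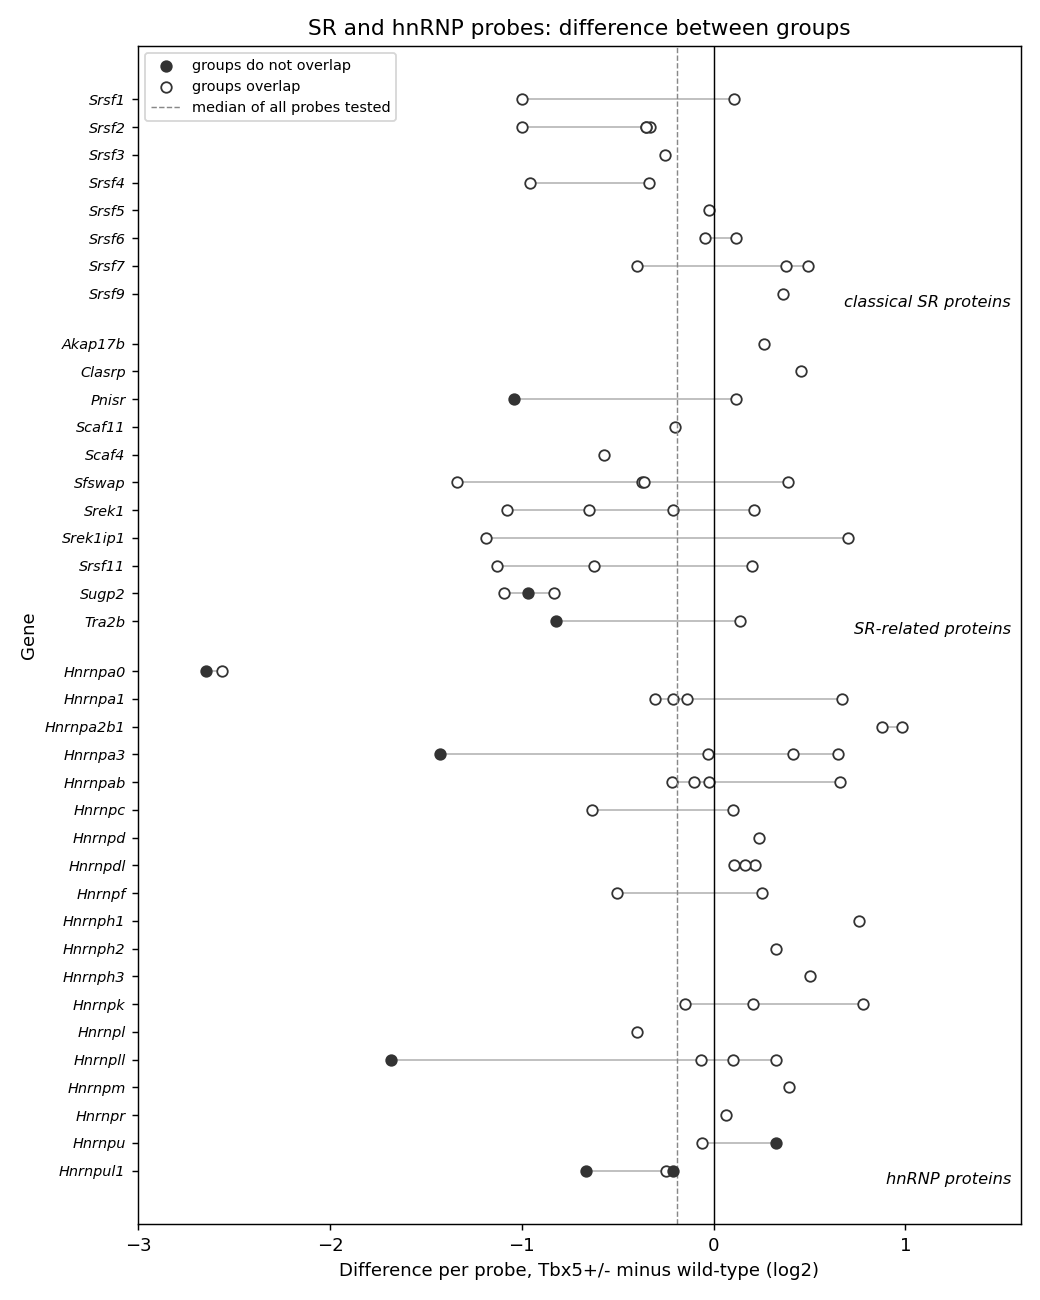
Difference between groups (x axis, Tbx5+/- minus wild-type, log2) for each tested probe of each gene (rows, in 3 families), joined by a line per gene; filled points are probes whose groups do not overlap and the dashed line is the median of all probes tested, -0.19. Both Hnrnpa0 probes lie below -2.5, and probes of Hnrnpa3, Hnrnpll and Srek1ip1 lie on both sides of 0.

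In the fit reported, no probe of a classical SR protein reached an unadjusted p of 0.05, and in none did the groups fail to overlap. Without Tbx5+/- 1, 5 were lower and 2 higher at that p, beside 27.2% and 14.6% of all probes. With the embryo number as a block, limma gave the 5′ probes of Srsf4, Srsf1 and Srsf2 unadjusted p of 0.0118, 0.0127 and 0.0162. Of all probes 29.6% were lower at p under 0.05 in that fit, and 0 of the classical SR probes passed after adjustment. Of the 16 tested, 11 lay below 0 and 5 above, between -0.998 and 0.49. For Srsf1, which binds exonic enhancers and promotes the use of nearby 5′ splice sites, the brightest probe read 14.59, 14.30, 13.73 and 14.50 in Tbx5+/- 1, 5, 6 and 7 and 14.74, 14.07, 14.12 and 13.76 in wild-type, a difference of 0.11 ± 0.27 (SE). The groups overlap almost completely. Its other probe, nearer the 5′ end, differed by -0.998 ± 0.50 (adjusted p = 0.258), with Tbx5+/- 6 lowest at 6.77 and the other arrays between 8.30 and 9.93.

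Srsf2, an enhancer-binding SR protein of nuclear speckles, had 4 probes that all lay below 0. The 3 towards the 3′ end differed by -0.33, -0.35 and -0.35, and turned to 0.037, 0.00092 and 0.017 with 75th percentile scaling. The 5′ probe (58.3% G and C) differed by -0.997 ± 0.57, reading 13.53, 12.82, 10.41 and 12.14 in Tbx5+/- and 13.80, 13.19, 12.66 and 13.24 in wild-type; again Tbx5+/- 6 lay far below the rest. Srsf4 repeated the pattern, with -0.96 at the 5′ probe and -0.34 at the 3′ probe, the latter 0.045 with 75th percentile scaling.

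Srsf3, the smallest SR protein, with a part in mRNA export, differed by -0.25 ± 0.22. Srsf5 and Srsf6 lay closest to 0, at -0.02 ± 0.18 for Srsf5 and -0.04 and 0.12 for the 2 probes of Srsf6. All 3 turned sign at their brightest probe when arrays were scaled to the 75th percentile (0.076, 0.35 and 0.33). Srsf9 differed by 0.36 (adjusted p = 0.306).

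Srsf7, an SR protein with a zinc knuckle, had probes on both sides of 0. The overlapping pair printed above differed by 0.38 and 0.49, and read alike in shape: the brighter one gave 14.68, 15.22, 15.86 and 15.69 in Tbx5+/- 1, 5, 6 and 7, and 14.95, 14.89, 14.87 and 14.79 in wild-type. Tbx5+/- 1 was below every wild-type array and the other 3 above. Another probe 395 bases downstream of the first differed by -0.40. Without Tbx5+/- 1 the overlapping pair passed, at 0.62 and 0.72 (adjusted p = 0.0443 and 0.0363), and these were the 2 classical SR probes that did.

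SR-related proteins carry arginine and serine repeats or bind SR proteins without belonging to the classical set. Of their 24 tested probes, 11 were lower and 1 higher at an unadjusted p under 0.05, beside 18.5% and 3.38% of all probes. The counts were 6 and 3 with 75th percentile scaling (8.61% and 15.6% of all), 3 and 3 with centring (6.64% and 16.2%) and 5 and 2 with quantile normalization (9.5% and 9.42%). Without Tbx5+/- 7, wild-type 5 or wild-type 7, 6 were lower (13.1%, 11.2% and 10.2%). Over the 18 above background on all arrays the counts were 6 and 1, beside 15.9% and 3.88%. That 6 fell to 2 without Tbx5+/- 7 or wild-type 5 (10.8% and 8.98%). With the embryo number as a block, 8 probes passed lower and 0 higher, beside 10.7% and 0.379% of all probes, and 4 of the 8 were above background on all arrays. The 8 were probes of Srsf11 (adjusted p = 0.0336), Srek1 (0.0354), Pnisr (0.0374), Tra2b (0.0383), Srek1ip1 (0.0430), Sfswap (0.0446) and Sugp2 (0.0454 and 0.0494). Sugp2, a protein with SURP and G-patch domains, was the gene whose probes stayed together: its 3 probes differed by -1.09, -0.97 and -0.83. The middle one read 8.77, 8.77, 7.16 and 7.99 in Tbx5+/- and 8.94, 9.58, 8.78 and 9.25 in wild-type, so the groups did not overlap but nearly touched. Its difference was -0.49 on slide 1 and -1.44 on slide 2.

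Scaf4, which binds the tail of RNA polymerase II, differed by -0.57 ± 0.22 (adjusted p = 0.204) and passed without Tbx5+/- 1 (-0.71, adjusted p = 0.0385). Scaf11 differed by -0.20 (0.17 with 75th percentile scaling and 0.12 with centring), Clasrp by 0.46 and Akap17b by 0.26. Clasrp passed without Tbx5+/- 1, at 0.79 (adjusted p = 0.0228).

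In the other SR-related genes the probes of a gene disagreed. For Srek1ip1, the partner of Srek1, the 5′ probe read 10.17, 9.10, 8.69 and 8.59 in Tbx5+/- 1, 5, 6 and 7 and 10.36, 10.44, 9.88 and 10.62 in wild-type, a difference of -1.19 ± 0.34 (adjusted p = 0.139). The 3′ probe went the other way, with 10.47, 11.61, 11.92 and 11.83 against 10.87, 10.71, 10.80 and 10.66, a difference of 0.70 ± 0.31 (adjusted p = 0.222). At both probes Tbx5+/- 1 lay with the wild-type arrays. Without it they differed by -1.53 and 1.03, and both passed (adjusted p = 0.00774 and 0.00885; over all alternatives 0.000464 to 0.413 and 0.00108 to 0.459).

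Tra2b, which binds purine-rich enhancers, differed by -0.82 ± 0.22 at a 5′ probe, where the groups did not overlap but only 1 Tbx5+/- array was well above background, and by 0.14 at the 3′ probe. Pnisr and Srek1 each had a probe that was not well above background on any Tbx5+/- array and was on all wild-type arrays, so both entered the test through wild-type alone. With Tbx5+/- values raised to each array's lowest signal above background, the wild-type mean was 1.52-fold higher at Pnisr (adjusted p = 0.126, 0.0374 with the block). At Srek1 it was 1.57-fold higher (adjusted p = 0.196, 0.123 with the block). There the groups overlapped, with Tbx5+/- 1 at 6.84 and wild-type 1 at 6.70. Their 3′ probes differed by 0.12 and 0.21. Of the other Srek1 probes, 1 differed by -1.08 and 1 by -0.21, the latter turning to 0.11 with centring, 0.13 with 75th percentile scaling and 0.062 with quantile normalization. Srsf11 had -1.13 and -0.62 at its first probes and 0.20 at its last, which was -0.031 after quantile normalization. Sfswap, the homologue of a fly splicing regulator, ranged from -1.34 to 0.39 over 4 probes.

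The hnRNP proteins held both extremes of the members. Hnrnpa0, an A/B-type hnRNP that binds AU-rich elements, differed most: its probe A_51_P517423 read 10.10, 7.80, 8.29 and 7.37 in Tbx5+/- 1, 5, 6 and 7 and 11.18, 10.34, 10.63 and 12.005 in wild-type. No Tbx5+/- array reached the lowest wild-type array. The difference was -2.65 ± 0.57, or 6.26-fold lower (limma adjusted p = 0.0959; exact permutation p = 0.0286, the smallest that 4 against 4 allow). Its second probe read 8.71, 6.62, 6.70 and 6.04 against 9.73, 8.67, 9.31 and 10.61 and differed by -2.57 ± 0.58. Only 2 Tbx5+/- arrays were well above background there. Taken within numbers, the first probe differed by -1.08, -2.54, -2.33 and -4.63 for 1, 5, 6 and 7, and by slide it was -1.81 on slide 1 and -3.48 on slide 2. With the number as a block both passed (adjusted p = 0.0339 and 0.0347), as they did without Tbx5+/- 1 (-3.22 and -3.13, adjusted p = 0.00542 and 0.00617). Over all alternatives the first probe ranged from -3.68 to -2.20 and its adjusted p from 0.000416 to 0.346.

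Hnrnpa3, of the same A/B type, was split along its transcript. The 5′-most probe read 10.43, 9.67, 8.81 and 9.72 in Tbx5+/- and 11.31, 11.15, 10.69 and 11.19 in wild-type, so the groups did not overlap, and it differed by -1.42 ± 0.32 (adjusted p = 0.0959, 0.0336 with the block). The next probes differed by 0.41 ± 0.23 and -0.03 ± 0.18. The 3′-most read 12.52, 13.81, 13.98 and 13.95 against 12.90, 12.66, 13.24 and 12.85 and differed by 0.65 ± 0.33. Without Tbx5+/- 1 the first passed lower (-1.68, adjusted p = 0.0103) and the last higher (0.999, adjusted p = 0.0142), while the second passed higher (0.61, adjusted p = 0.0352). The third probe turned to 0.29 with centring and 0.34 with 75th percentile scaling, and the second to -0.014 after quantile normalization.

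Hnrnpa2b1, which shares RNA motifs with Hnrnpa1, had the highest difference among the members. Its brighter probe read 14.54, 15.82, 16.44 and 15.91 in Tbx5+/- 1, 5, 6 and 7 and 14.78, 14.64, 14.99 and 14.36 in wild-type. The 3 arrays other than Tbx5+/- 1 lay above every wild-type array. The difference was 0.98 ± 0.37 (adjusted p = 0.197, 0.0704 with the block, 0.0110 without Tbx5+/- 1). The second probe, 1455 bases away, gave 0.88 ± 0.43. For Hnrnpa1, an exon silencer that opposes Srsf1, the brightest probe differed by 0.67 ± 0.28 and the 3 dimmer ones by -0.14, -0.21 and -0.31; all 3 turned positive with 75th percentile scaling (0.22, 0.14 and 0.043). The probe with -0.14 also lists non-coding transcripts among its targets, so its reading is uncertain. Hnrnpab was alike, with 0.66 ± 0.26 at its brightest probe and -0.22, -0.02 and -0.10 at the others, which turned to 0.085, 0.35 and 0.28 with 75th percentile scaling.

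**Figure D3:**
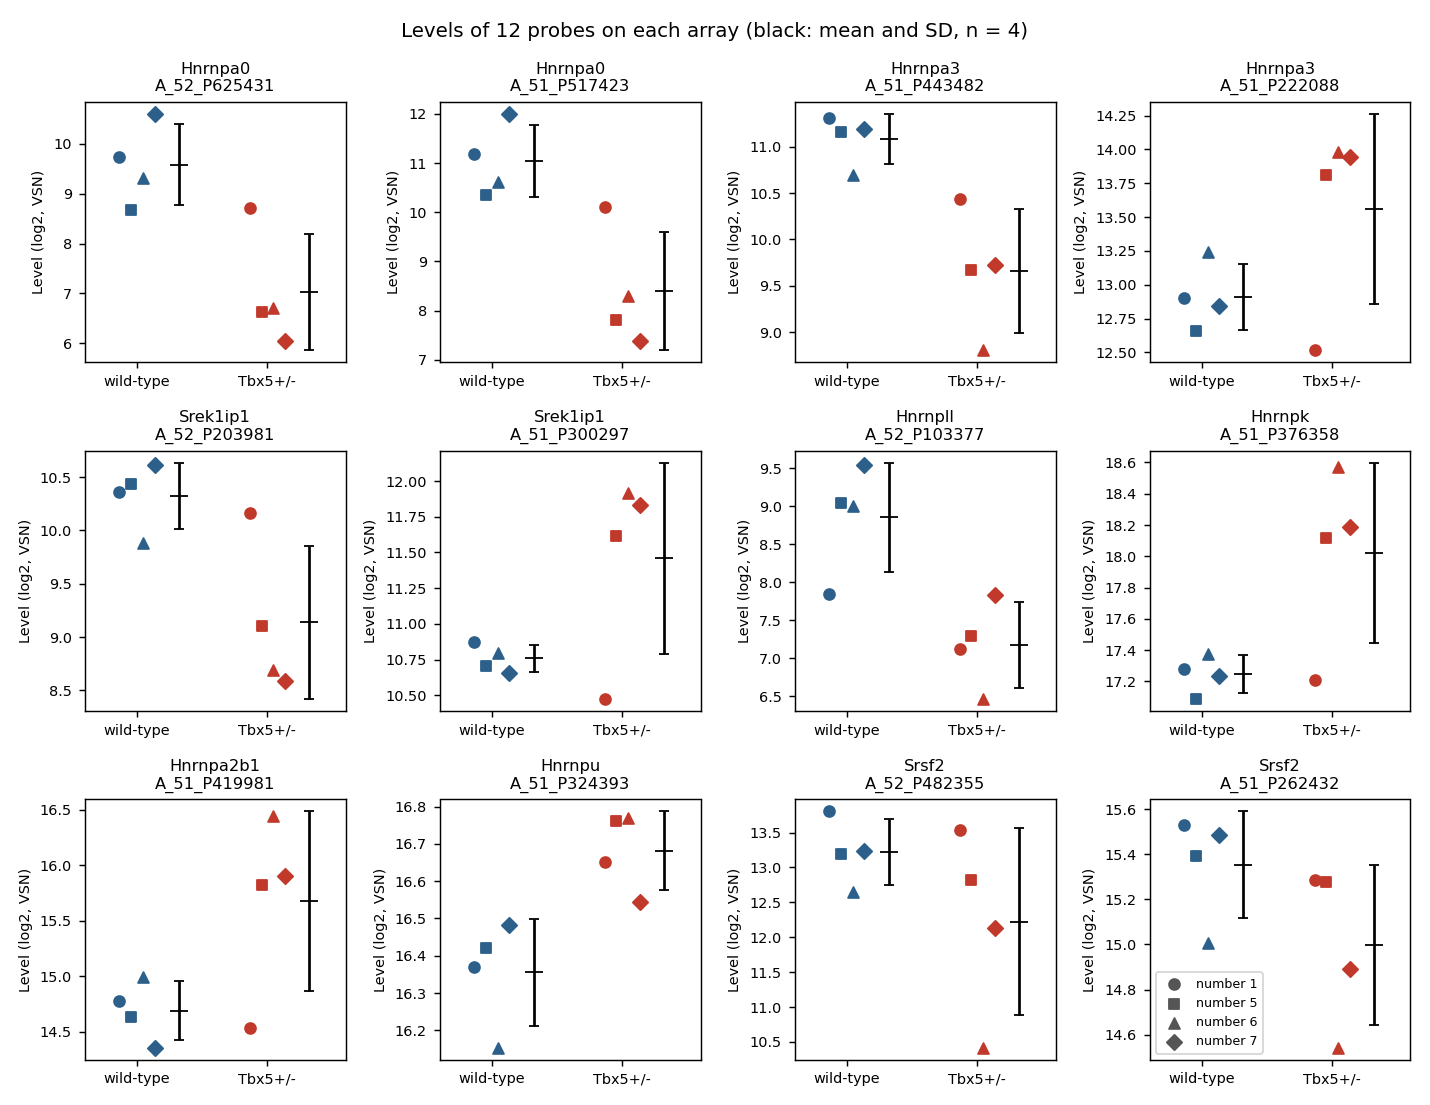
Levels (y axis, log2 after variance stabilization, with its own range in each panel) of 12 probes on the 4 wild-type (blue) and 4 Tbx5+/- (red) arrays, with symbols for the embryo numbers and the mean and SD in black. At Hnrnpa0 and the 5′ probe of Hnrnpa3 the Tbx5+/- arrays lie lower, and at the 3′ probes of Hnrnpa3 and Srek1ip1, Hnrnpk and Hnrnpa2b1 Tbx5+/- 5, 6 and 7 lie above the wild-type arrays while Tbx5+/- 1 does not.

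Hnrnpll, a relative of Hnrnpl that binds CA-rich RNA, had 4 probes of which 1 stood out. It read 7.13, 7.29, 6.46 and 7.83 in Tbx5+/- 1, 5, 6 and 7 and 7.85, 9.05, 8.996 and 9.54 in wild-type. The highest Tbx5+/- array lay just under the lowest wild-type array, and 3 of the 4 Tbx5+/- arrays were well above background. It differed by -1.68 ± 0.39 (adjusted p = 0.0978, 0.0336 with the block, 0.0366 without Tbx5+/- 1) and the others by -0.07 (0.31 with 75th percentile scaling), 0.10 and 0.32. The probe was designed on a cDNA rather than a RefSeq mRNA. Hnrnpl itself differed by -0.40 ± 0.25.

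Hnrnpk, a C-rich RNA binder with KH domains, read 17.21, 18.12, 18.57 and 18.19 in Tbx5+/- and 17.28, 17.09, 17.38 and 17.24 in wild-type at its brightest probe. The difference was 0.78 ± 0.28 (adjusted p = 0.191; 1.05 and 0.0118 without Tbx5+/- 1), and the 2 other probes gave 0.21 and -0.15, the latter turning to 0.23 with 75th percentile scaling. The G-run binders Hnrnph1, Hnrnph2 and Hnrnph3 differed by 0.76, 0.33 and 0.50, and Hnrnpf, of the same group, by -0.50 at its 5′ probe and 0.25 at its 3′ probe (-0.13 after quantile normalization). All 3 of the first passed without Tbx5+/- 1 (adjusted p = 0.0198, 0.0495 and 0.0266).

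Hnrnpu, the scaffold protein that ties RNA to chromatin, was the member whose groups did not overlap with Tbx5+/- higher: 16.65, 16.76, 16.77 and 16.55 against 16.37, 16.42, 16.15 and 16.48. The difference was small, 0.33 ± 0.17 (adjusted p = 0.271; exact p = 0.0286), and Tbx5+/- was higher within all 4 numbers. The second probe, 491 bases downstream, differed by -0.06, and by 0.30 with 75th percentile scaling. Hnrnpul1, its relative, had 2 probes without overlap, at -0.66 and -0.21, but at the first only 2 Tbx5+/- arrays were above background, and the second turned to 0.13 with 75th percentile scaling. Hnrnpc, a packer of U-rich RNA, differed by 0.10 and -0.63 at its probes, Hnrnpm by 0.39 (-0.057 after quantile normalization), Hnrnpd by 0.24 and Hnrnpr by 0.07. The 3 probes of Hnrnpdl differed by 0.10, 0.17 and 0.21.

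How the probes of a gene disagreed was measured from position alone. For the 24 member genes with 2 or more tested probes, the level at the 3′-most probe was subtracted from that at the 5′-most probe on each array. This gap was lower in Tbx5+/- in 15 of 24 genes (62.5%), beside 68.3% of 4624 genes on the array, and its median difference was -0.21 beside -0.20. The groups did not overlap in the gap for 4 genes, all lower (Pnisr, Srsf1, Tra2b and Srsf11, each with exact p = 0.0286, before any adjustment for 24 genes), beside 5.9% of all genes lower and 2.05% higher. The 5′ probes of all 4 entered the test through the wild-type arrays alone. Tbx5+/- arrays well above background there numbered 0 at Pnisr, 1 at Tra2b, 1 at Srsf11 and 3 at Srsf1. These 4 gaps thus rest on probes that passed the filter only where they were high, and no conclusion is drawn from them. Hnrnpa3 had the widest difference in gap, -2.07 (exact p = 0.0571), and Srek1ip1 came next with -1.89 (exact p = 0.0857); without Tbx5+/- 1 they were -2.68 and -2.56. By family, the gap was lower in 4 of 5 classical SR genes, 6 of 7 SR-related genes and 5 of 12 hnRNP genes. The 2 probes of Hnrnpa0, only 536 bases apart, gave a gap difference of 0.08, with 2 Tbx5+/- arrays above background at the first. Those of Hnrnpa2b1, 1455 bases apart, gave 0.10.

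The same gap, taken over all 4624 genes as a deviation from its mean, also moved with the arrays: its median was 0.17 in Tbx5+/- 1, -0.12 in 5, -0.28 in 6 and -0.18 in 7, and 0.21, 0.09, 0.02 and 0.09 in wild-type 1, 5, 6 and 7. So Tbx5+/- 1 lay with wild-type in this measure, as it did at many member probes, and Tbx5+/- 6 was lowest. Its part in the differences of single members was not tested.

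**Figure D4:**
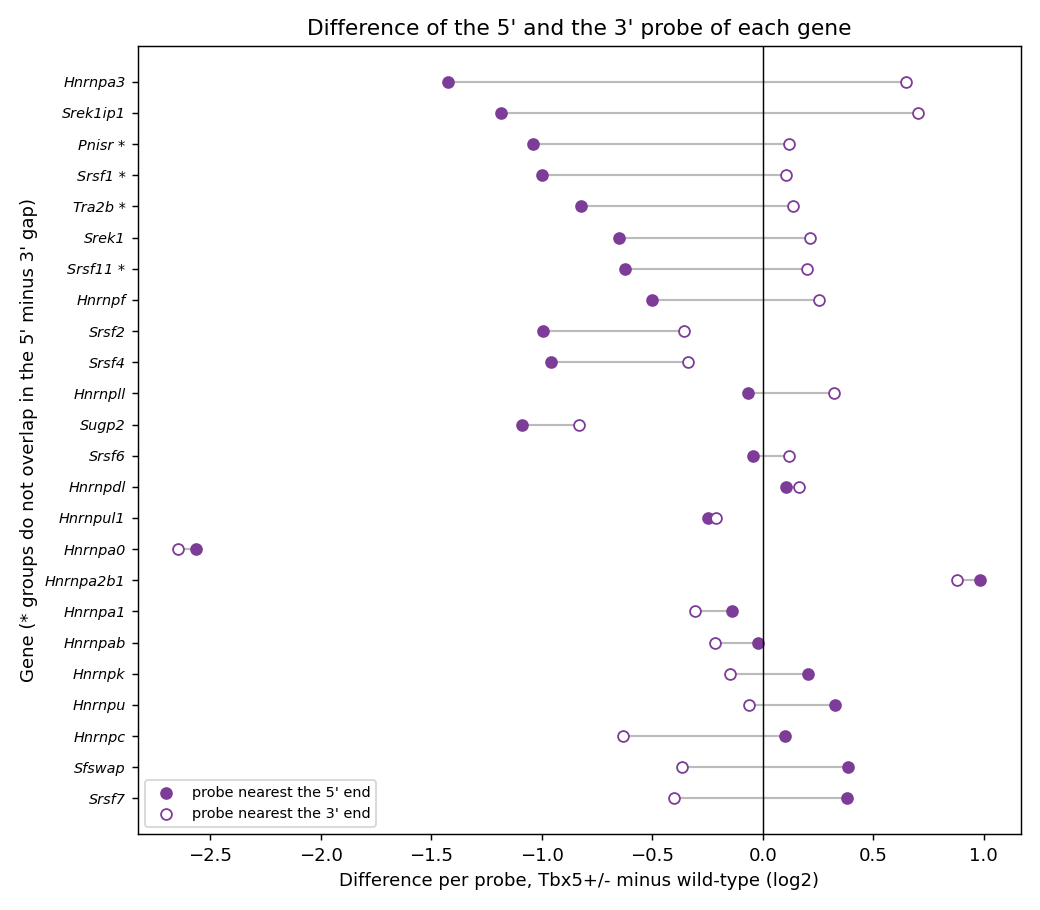
For 24 genes with 2 or more tested probes, the difference between groups (x axis, log2) at the 5′-most probe (filled) and the 3′-most probe (open), ordered by the gap between them; asterisks mark the 4 genes whose 5′ minus 3′ gap does not overlap between groups. Hnrnpa3 and Srek1ip1 are at the top with the widest gaps, and the probes of Hnrnpa0 and those of Hnrnpa2b1 lie together.

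Differences also moved with the level of the probe. Across all probes tested the median difference was -0.32 at log2 levels of 9 to 10, 0.25 at 15 to 16 and 0.55 at 17 to 18. Of the 82 member probes, 56 lay among the brighter part of all probes tested, above the upper tertile of level; their median difference was 0.10, with 1 lower and 6 higher at an unadjusted p under 0.05, beside a median of -0.03 and 734 lower and 425 higher of all 6677 probes in that range. Pearson's r between level and difference over the 82 probes was 0.63 (Spearman's rho 0.65), beside 0.24 over all probes. The 82 include 10 dim probes that entered the test through the wild-type arrays alone, where the filter favours values below 0. The correlation without them was not computed. These are correlations across probes of the same 8 arrays, and probes are not independent replicates. Set against probes at levels of 17 to 18, with a median of 0.55 and quartiles of 0.34 and 0.65, Hnrnpk (0.78) and Hnrnpab (0.66) lay above the upper quartile and Hnrnpa3 at its second probe (0.41) between the lower quartile and the median. Hnrnpu (0.33) lay close to the median of 0.33 for 16 to 17. Hnrnpa2b1 (0.98) and Hnrnph1 (0.76) lay above the upper quartiles of 0.45 and 0.34 at their levels, and Hnrnpa0 (-2.65) below the lower quartile of -0.69. The part of level in these differences was not tested.

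**Figure D5:**
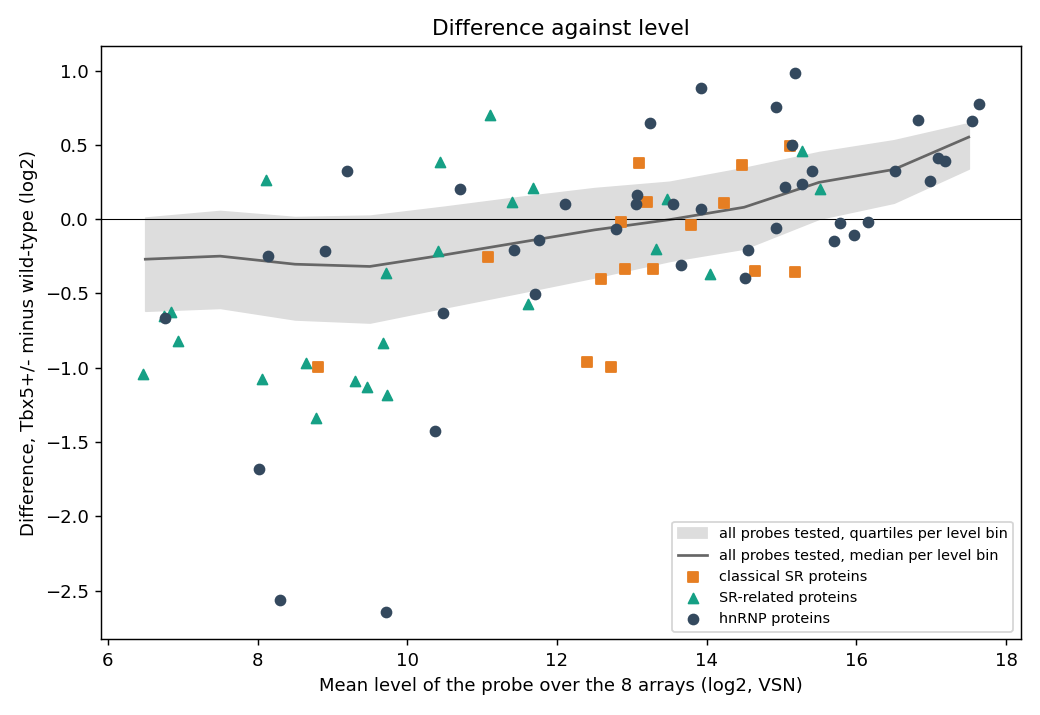
Difference between groups (y axis, log2) against the mean level over the 8 arrays (x axis, log2) for the 82 tested probes in 3 families, over the median (line) and quartiles (shaded) of all probes tested in bins of 1 log2 unit. The line runs from -0.27 at levels of 6 to 7 to 0.55 at 17 to 18, and Hnrnpa0 lies far below it.

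The composition of the probe went with the difference too. All 9 member probes with at least 50% G and C lay below 0, with a median of -0.997, against -0.02 over the 73 others; over all probes 76.8% and 62.9% lay below 0 and the medians were -0.36 and -0.16. Pearson's r of G and C content with the difference was -0.50 over the 82 probes, and -0.29 without the 2 of Hnrnpa0, beside -0.14 over all. Of 19 probes that name no RefSeq mRNA, 15 lay below 0 (median -0.35), against 32 of the 63 that do (median -0.02). Among the 19, single probes of Pnisr, Srek1, Srsf11, Tra2b, Hnrnpa0 and Hnrnpll entered the test through the wild-type arrays alone. The filter favours values below 0 at such probes, so no conclusion is drawn from this contrast. Over all probes, 63.4% of those without and 65.9% of those with a RefSeq mRNA lay below 0, with medians of -0.17 and -0.20.

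The genes that work with these families were listed by role, and each gene was read at its brightest tested probe. None of 110 passed an adjusted p of 0.05, as for all probes. At an unadjusted p under 0.05, 18.5% of all probes were lower and 3.38% higher, and the counts of each list stand beside those shares. Of 12 kinases, phosphatases and importins that modify or carry SR proteins, 1 was lower (Tnpo3, the importin of SR proteins, -0.63) and 0 higher at an unadjusted p under 0.05, with a median of -0.33. The median over 16 hnRNP-type proteins with other symbols was -0.14, and Pcbp3, a C-rich RNA binder, was lower at -0.79. Among 11 SR-related coactivators 0 were lower and 3 higher: Tra2a at 0.66, Srrm2 at 0.49 and Luc7l2 at 1.1003. Srsf10 differed by 0.26.

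Of 37 core spliceosome proteins, 5 were lower and 3 higher at an unadjusted p under 0.05, beside 18.5% and 3.38% of all probes. Their median of -0.20 lay close to that of all probes. Sf3b1, the branch site factor of the U2 particle, read 9.93, 9.11, 8.97 and 8.83 in Tbx5+/- 1, 5, 6 and 7 and 10.27, 11.21, 10.54 and 11.38 in wild-type. The groups did not overlap and the difference was -1.64 ± 0.32 (adjusted p = 0.0940; 0.0359 with the block). U2af2 and Sf1, which read the 3′ splice site and the branch point, differed by -1.03 and -0.83, and Snrpg by 0.74. Among 21 tissue-restricted regulators 4 were lower and 2 higher, led by Mbnl2 (-1.26) and Tia1 (-0.99) and by Qk (0.49) and Khdrbs3 (0.69). Of 12 nonsense-mediated decay factors, which degrade the unproductive forms of SR transcripts, 0 were lower and 2 higher, Magoh at 0.57 and Upf2 at 0.75.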

How the data were processed

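RNA of 8 pools (4 Tbx5+/-, 4 wild-type) was hybridized to Agilent arrays. Scanner files deposited by the authors hold intensity values (mean signal and local background per spot) from Agilent Feature Extraction 10.5.1.1, and the authors deposited a table of log2 values after variance stabilization (VSN) for part of the probes. Here each spot's mean signal was reduced by its local background, outlier spots (0 among the members) were left out, repeated spots were averaged and VSN was computed in R 4.3.3. A probe was tested when all 4 arrays of either group had it well above background. Groups were compared with limma 3.58.1 (two-sided, Benjamini-Hochberg over 20031 probes, threshold 0.05), checked on simulated data. Errors of differences are limma's SE with the SD pooled across the arrays. Exact permutation tests enumerated 70 assignments. Array intensities give no read depth, and the number of arrays limits precision.

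Same-numbered samples deviated together, with r of deviations from group means of 0.44, 0.40, 0.59 and 0.14 for 1, 5, 6 and 7. Pairs of unlike number gave -0.60 to 0.37, and Tbx5+/- 7 was closer to wild-type 6, at 0.37, than to wild-type 7. The numbers were therefore taken to pair the samples. The fit with the number as a block is given for the counts and for some of the probes named. Members and lists were chosen with earlier results of these data known. Genes named were 12 core SR and hnRNP genes at their brightest probe, up to 10 probes per direction whose groups did not overlap, and genes whose probes had opposite signs with at least 1 unadjusted p under 0.05, described with all their probes; the remaining members are given by value so that every gene is covered, and in other lists up to 4 genes by p. Of the members, 65 probes took a current symbol from a RefSeq accession. Coordinates on mm9 were copied from the array annotation; exons and UTRs are not given, since no annotation of that build was used here. Scaling, filters, blocks, array weights and leaving out each array were tried as alternatives. Values of 2 genes in the lists of other genes are not reported here.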

Additional observations from a re-analysis of the deposited data

Results flagged for a closer look

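Among 200 groups of 4 arrays (100 probes, 2 groups each), 11 had an array whose gap to the nearest other exceeded Dixon's critical share of the group's range; chance flags about 1 in 20 groups. Tbx5+/- 1 was that array at 6 of the 11, below the other Tbx5+/- arrays each time. It read 14.52 at Clasrp (others 15.80 to 15.88), 12.52 at the 3′ probe of Hnrnpa3 (13.81 to 13.98), 12.21 at Hnrnpdl (13.41 to 13.54), 12.74 at the 3′-side probe A_52_P672627 of Hnrnpll (13.20 to 13.27), 16.67 at Hnrnpm (17.58 to 17.69) and 10.79 at the 3′ probe of Srek1 (12.03 to 12.27).

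Tbx5+/- 6 lay low at Hnrnpa1, with 10.61 (11.45 to 11.62), and at the 5′ probe of Hnrnpf, with 10.49 (11.68 to 11.87). Wild-type 1 lay low at Hnrnpdl, with 12.68 (13.07 to 13.12), and at Hnrnpll probe A_52_P512877, with 8.55 (9.16 to 9.25), so at that Hnrnpdl probe number 1 was lowest in both groups. Wild-type 6 lay low at Tbx5, with 10.42 (11.47 to 11.56).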

How the results depend on the processing

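No probe of the 82 passed an adjusted p of 0.05 with the values reported or under 9 other scalings, filters and models. The embryo number as a block gave 13 lower, beside 10.7% of all probes. Array weights gave 21 lower and 20 higher, beside 29.5% and 14.1% of all probes. The filter of the study's methods, which kept 38 of the 82, gave 3 lower, beside 1.83% of all probes passing it. Leaving out each array in turn gave 0 to 13 lower and 0 to 16 higher at that threshold, 1 to 21 higher at an unadjusted p under 0.05, 8 to 19 lower and 1 to 24 higher without overlap, and 5 to 23 lower and 1 to 19 higher among the other splicing genes. The causes of these moves were not tested.

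At an unadjusted p under 0.05, array weights gave 28 lower and 23 higher, beside 34.7% and 17.7% of all probes. Arrays centred on their median gave 7 and 22 (6.64% and 16.2%), 75th percentile scaling 26 higher (15.6%) and quantile normalization 10 lower (9.5%). When only the probes above background on all arrays were fitted, 9 were lower (16.8%), and 8 in the fit over all tested probes (15.9%). The study's filter gave 2 higher (2.83%), and 1 probe per gene gave 3 lower. Probes without overlap numbered 4 lower and 11 higher with centring, beside 2.45% and 8.95% of all probes. With 75th percentile scaling they were 5 and 15 (3.75% and 9.63%). They were 4 lower with quantile normalization (3.98%) and with probes above background on all arrays (8.06%), and 2 lower with 1 probe per gene. The study's filter gave 0 higher (0.839%), and 2 were higher without a filter (1.62%). The median difference became 0.026 with array weights, 0.24 with centring, 0.29 with 75th percentile scaling, 0.21 with 1 probe per gene and -0.57 with the study's filter. Relative to all probes it was 0.40 with 1 probe per gene, and turned to -0.15 with the study's filter, -0.10 without a filter and -0.028 with quantile normalization. Among the 110 other splicing genes, 12 were lower and 10 higher, beside 18.5% and 3.38% of all probes. The array label as a block gave 19 lower (23.6% of all probes) and the replicate block 25 lower (29.6%). Array weights gave 36 lower and 27 higher (34.7% and 17.7%), and centring 4 and 30 (6.64% and 16.2%). With 75th percentile scaling they were 3 and 31 (8.61% and 15.6%), and the study's filter gave 3 higher (2.83%). Centring and 75th percentile scaling thus moved the split towards higher.

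Of 1844 pairs of probe and alternative, 1641 kept direction and side of the threshold, 128 newly passed and 75 turned sign. Signs turned with centring at Hnrnpa1 (0.11, 0.016 and 0.18), Hnrnpa3 (0.29), Hnrnpab (0.11, 0.30 and 0.22), Hnrnpk (0.17), Hnrnpll (0.26), Hnrnpu (0.26), Hnrnpul1 (0.11 and 0.075), Scaf11 (0.12), Srek1 (0.11), Srsf3 (0.067), Srsf5 (0.30) and Srsf6 (0.28). With 75th percentile scaling they turned at Hnrnpa1 (0.14, 0.043 and 0.22), Hnrnpa3 (0.34), Hnrnpab (0.085, 0.35 and 0.28), Hnrnpk (0.23), Hnrnpll (0.31), Hnrnpu (0.30), Hnrnpul1 (0.13 and 0.061), Scaf11 (0.17), Sfswap (0.0028), Srek1 (0.13), Srsf2 (0.00092, 0.017 and 0.037), Srsf3 (0.076), Srsf4 (0.045), Srsf5 (0.35) and Srsf6 (0.33). Quantile normalization turned Hnrnpa1 (0.017), Hnrnpa3 (-0.014), Hnrnpab (0.13), Hnrnpf (-0.13), Hnrnpll (0.00552), Hnrnpm (-0.057), Hnrnpul1 (0.049), Srek1 (0.062), Srsf11 (-0.031) and Srsf5 (0.044), and array weights turned Hnrnpa1 (0.029 and 0.23), Hnrnpa3 (0.027), Hnrnpab (0.043), Hnrnpu (0.024), Srsf5 (0.11) and Srsf6 (0.12). Leaving out an array turned signs at Hnrnpa1 (-0.31 to 0.028 and -0.33 to 0.054), Hnrnpa3 (-0.0872 to 0.0849), Hnrnpab (-0.12 to 0.096), Hnrnpc (-0.012 to 0.24) and Hnrnpdl (-0.034 to 0.25). It also turned Hnrnpll (-0.15 to 0.066), Hnrnpu (-0.19 to 0.11), Pnisr (-0.073 to 0.45) and Sfswap (-0.57 to 0.0083). The same held for Srsf1 (-0.030 to 0.30), Srsf5 (-0.078 to 0.060) and Srsf6 (-0.12 to 0.053). Depth cannot be stated for arrays, and probes near background give only rough fold changes.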
